A study of Mus musculus with 16 samples.

Results

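Open chromatin was described around the 4 genes of the myogenic regulatory factors, Myod1, Myf5, Myf6 and Myog, in C2C12 iMyoD1 cells profiled by ATAC-seq, in which a transposase inserts sequencing adapters into accessible DNA. A peak was taken when any part of it lay in the GENCODE M21 gene body or within 100 kb on either side of it, in mouse genome build mm10. Overlapping peaks of the 14 compared libraries were merged into regions, and 36 of 80290 regions in the series met this rule. Of these, 13 lay around Myod1 (chr7:46376474-46379099, plus strand) and 17 around Myog (chr1:134289989-134292548, plus strand). The other 6 lay around Myf5 (chr10:107482908-107486134) and Myf6 (chr10:107492853-107494737), neighbours on the minus strand whose windows overlap and were treated as 1 locus. Regions are named here by the distance of their summit, the point of highest coverage, from the start of Myod1, Myf5 or Myog. The summit of a region is that of its peak with the highest −log10 p, and summits in other libraries can lie elsewhere.

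C2C12 is a mouse skeletal myoblast line. All groups carried the genotype given as endogenous MyoD1 + dox-inducible Halo-MyoD1: beside its own Myod1 gene, the line held a transposon-delivered transgene whose doxycycline-responsive promoter drives a Halo-tagged MyoD1, in a drug-selected population. Cells stayed in growth medium (GM) or had their serum withdrawn (DM), and over the same 24 h were given doxycycline (+dox) or vehicle (no dox), which makes 4 groups. Seeding differed with the medium (75000 cells for GM, 300000 for DM), so medium and density cannot be told apart. Each group had 4 biological replicates. Replicate 1 of both DM groups had been left out by the study for quality and was left out here, which gave 4, 4, 3 and 3 libraries. The comparisons address whether a raised MyoD1 level, or entry into differentiation, changed accessibility at the genes of the factor's own family.

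The myogenic regulatory factors are basic helix-loop-helix transcription factors that bind E-boxes, short DNA elements of the form CANNTG, as dimers with E proteins. Myf5 and Myod1 set the myoblast identity, Myog drives terminal differentiation, and Myf6 (also called Mrf4) acts in early muscle and again in mature fibres. Their genes are controlled in large part by enhancers far from the promoter. Myod1 is known for a core enhancer and a distal regulatory region upstream, Myf5 and Myf6 share a long upstream domain with many enhancers, and Myog is known for a compact promoter with E-box and MEF2 elements.

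Lists of very different length have to be set beside each other in these data. In GM the kept lists held 14710 to 49300 peaks without dox and 36531 to 58587 with dox, and in DM 23690 to 40599 and 46241 to 51340. Genome-wide background coverage, solved from the deposited values, was 0.339 to 1.127 fragments per base. A region without a listed peak therefore fell below the caller's threshold in that library, which does not show closed chromatin. Comparisons were made both in all deposited peaks and in lists of equal length, the 14710 strongest peaks of each library by −log10 p. Of 8 myogenic marker genes, Myod1, Chrna1 and Dag1 had a promoter peak (within 1 kb of a start) in all 14 libraries, Des in 13, Cdh15 in 10, Itga7 in 9, Myf5 in 6 and Vgll2 in 2. Of 10 markers of other cell types, Pecam1 had one in 8 libraries and Rbfox3 in 1, and the other 8 were at 0. The Myod1 promoter peak lies in coding exon 1, where transgene reads cannot be told apart. Myod1 and Myf5 are also among the genes described here.

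Most of the 36 regions lay away from promoters. The summit of 20 was intergenic, of 8 in an intron, of 4 in a coding exon and of 4 in a UTR, and 28 were more than 1 kb from any start of a protein-coding gene. The sequences of 8 distal regions are given, 100 bases on either side of the summit on the plus strand of mm10, because the results turn on them. Capitals mark E-boxes (CANNTG) and AP-1 elements (TGANTCA), the binding site of Fos and Jun factors. The first 5 lie upstream of Myod1, at chr7:46337566-46337766, chr7:46341557-46341757, chr7:46350288-46350488, chr7:46353249-46353449 and chr7:46321304-46321504, and were the most often detected regions of that gene outside its coding exons.
Myod1 38.8 kb upstream: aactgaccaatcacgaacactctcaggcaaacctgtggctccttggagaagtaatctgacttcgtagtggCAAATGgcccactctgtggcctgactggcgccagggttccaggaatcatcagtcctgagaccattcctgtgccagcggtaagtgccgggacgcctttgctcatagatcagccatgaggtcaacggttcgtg
Myod1 34.8 kb upstream: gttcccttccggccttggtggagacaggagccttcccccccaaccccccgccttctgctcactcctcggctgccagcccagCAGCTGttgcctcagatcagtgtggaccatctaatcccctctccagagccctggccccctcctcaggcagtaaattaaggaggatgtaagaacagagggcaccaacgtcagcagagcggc
Myod1 26.1 kb upstream: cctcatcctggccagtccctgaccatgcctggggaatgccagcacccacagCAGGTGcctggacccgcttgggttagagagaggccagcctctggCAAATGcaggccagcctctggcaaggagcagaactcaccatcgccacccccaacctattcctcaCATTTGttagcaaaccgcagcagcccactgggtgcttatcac
Myod1 23.1 kb upstream: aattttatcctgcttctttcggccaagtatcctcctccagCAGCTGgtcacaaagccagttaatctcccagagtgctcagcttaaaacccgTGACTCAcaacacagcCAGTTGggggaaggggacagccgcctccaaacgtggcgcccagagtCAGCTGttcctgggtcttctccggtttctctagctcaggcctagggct
Myod1 55.1 kb upstream: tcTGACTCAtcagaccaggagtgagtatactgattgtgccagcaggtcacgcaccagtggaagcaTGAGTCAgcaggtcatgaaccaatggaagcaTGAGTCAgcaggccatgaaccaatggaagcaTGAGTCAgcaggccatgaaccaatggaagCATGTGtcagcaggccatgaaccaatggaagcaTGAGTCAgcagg
The last 3 are a region upstream of Myf6 (chr10:107499773-107499973), which holds an E-box that overlaps an AP-1 element, and the 2 regions upstream of Myog with the most E-boxes of 3 examined for that gene (chr1:134196034-134196234 and chr1:134245115-134245315).
Myf5 13.7 kb upstream: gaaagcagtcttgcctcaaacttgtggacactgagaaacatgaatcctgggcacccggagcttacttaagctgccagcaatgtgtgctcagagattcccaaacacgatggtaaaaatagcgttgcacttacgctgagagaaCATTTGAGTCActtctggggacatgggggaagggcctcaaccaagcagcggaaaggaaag
Myog 93.9 kb upstream: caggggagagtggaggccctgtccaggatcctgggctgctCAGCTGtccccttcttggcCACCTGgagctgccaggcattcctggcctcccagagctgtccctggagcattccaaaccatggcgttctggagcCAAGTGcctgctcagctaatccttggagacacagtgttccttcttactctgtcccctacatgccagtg
Myog 44.8 kb upstream: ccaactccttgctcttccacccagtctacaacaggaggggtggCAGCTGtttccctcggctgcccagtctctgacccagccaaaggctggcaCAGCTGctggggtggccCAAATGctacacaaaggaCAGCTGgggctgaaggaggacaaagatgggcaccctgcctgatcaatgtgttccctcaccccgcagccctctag

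Peaks were counted at each of the 3 loci, and differences between loci were not tested. At Myod1, 3 of 13 regions were detected in each of the 14 libraries. Of these 3, 1 lies in coding exon 1, where transgene reads cannot be told apart. At Myog 2 of 17 were, both at the promoters of neighbouring genes, and at Myf5 and Myf6 0 of 6. At least 7 libraries held a peak at 7 of 13 regions near Myod1, its 2 coding-exon regions included. The same held for 2 of 17 near Myog and 1 of 6 near Myf5 and Myf6. The share of all regions found this often was not counted. Over all 36 regions, 5 (13.9%) had a peak in every library, beside 13.8% of all regions in the series, and 13 (36.1%) had a peak in 1 library alone, beside 23.5%. Peaks in +dox libraries alone were found at 18 regions (50%, beside 28.4% of all regions): 12 near Myog, 4 near Myod1 and 2 near Myf5 and Myf6. A single region, 12.0 kb upstream of Myod1 in GM no dox replicate 2, had a peak in no dox libraries alone (2.78%, beside 6.26%). A region with a peak in 1 library falls in either class by definition. The no dox region was 1 of the 13 such regions, and all the rest of them were among the 18. The +dox lists were on the whole longer, and the part of list length in these shares was not tested.

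**Figure D1:**
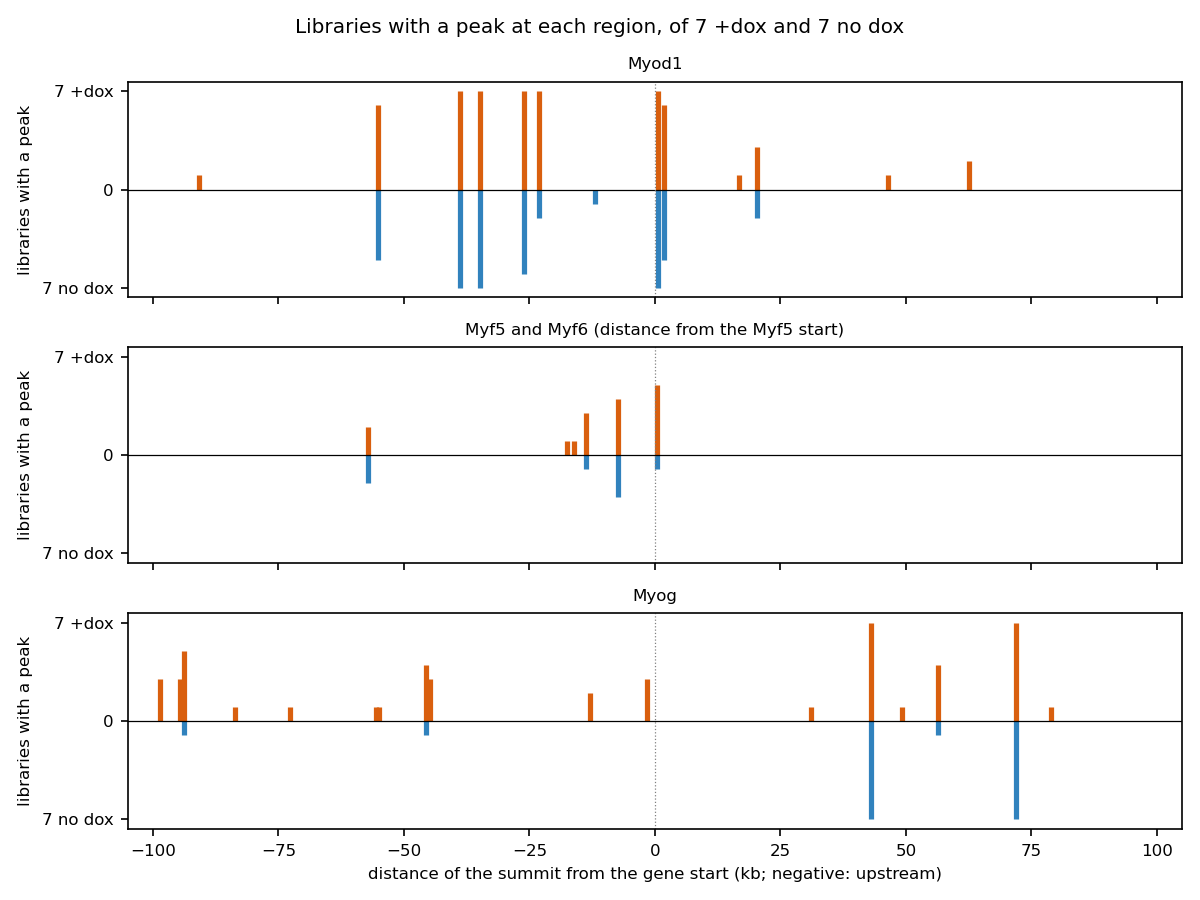
Number of the 7 +dox libraries (orange, upward) and of the 7 no dox libraries (blue, downward) with a peak at each region, against the distance of its summit from the gene start in kb, for Myod1, for Myf5 and Myf6, and for Myog. Upstream of Myod1 4 regions had a peak in all 7 +dox libraries, while upstream of Myog no region did.

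Upstream of Myod1, the regions at 38.8 kb (chr7:46337335-46337911) and 34.8 kb (chr7:46341409-46341936) were open in every library. Both are intergenic, and Myod1 has the nearest protein-coding start. At 38.8 kb the fold enrichment, the summit coverage over the local background of the same library, was 3.91, 8.92, 6.49 and 11.83 in the 4 GM no dox libraries and 9.84, 8.50, 5.56 and 10.14 in GM +dox. It was 7.14, 5.81 and 11.05 in DM no dox and 11.25, 12.25 and 12.7 in DM +dox. As deposited, all 3 DM +dox values were above all 3 of DM no dox, and the GM groups overlapped.

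Without centring, the log2 difference with dox at 38.8 kb was 0.64 in DM (adjusted p = 0.269 in limma) and 0.20 in GM (adjusted p = 0.526). Neither passed the test. Once each library was centred on its median, no difference between groups at this region passed it either. In limma, dox changed its log2 fold enrichment by −0.22 ± 0.20 (SE; n = 4 and 4; adjusted p = 0.895) in GM and by 0.12 ± 0.23 (n = 3 and 3; adjusted p = 0.898) in DM. Differentiation changed it by 0.00 ± 0.21 without dox (adjusted p = 0.997 in limma; 95% interval −0.43 to 0.44) and by 0.34 ± 0.21 with dox (adjusted p = 0.704). The threshold was an adjusted p of 0.05 over the 11046 regions fitted. Of all regions, dox called 0.0% in GM and 0.0634% in DM, differentiation 0.48% without and 0.253% with dox, and the interaction of dox and medium 0.0%. None of the 5 regions near the 4 genes that could be fitted, those with a peak in all 14 libraries, was called in any of the 5 contrasts.

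The same region was all-or-none in lists of equal length. Its rank by −log10 p was 14887, 18901 and 15603 in DM no dox, beyond the limit of 14710 in all 3, and 12216, 12559 and 12640 in DM +dox, within it in all 3. GM no dox had ranks of 14311, 13667, 13051 and 10077, also within it, and GM +dox 13622, 12013, 26457 and 8674, with 1 of 4 beyond it. It was thus counted as gained with dox in DM (1 of 5 regions near the 4 genes, beside 0.824% of all regions) and as lost on differentiation without dox (1 of 8, beside 1.04%).

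The region at 34.8 kb carries the E-box CAGCTG preferred by MyoD1, 19 bp before the summit of its strongest peak, in GM +dox replicate 2. Summits of single libraries lay between 46341531 and 46341751. This region reached higher values. Its fold enrichment was 6.92, 11.16, 9.63 and 8.36 in GM no dox and 11.9, 15.57, 10.97 and 10.43 in GM +dox. In DM no dox it was 8.21, 5.51 and 6.45, and in DM +dox 16.65, 11.25 and 6.22. With and without dox the values overlapped in both media, and GM +dox replicate 2 and DM +dox replicate 2 were the highest. The centred difference by limma was 0.02 ± 0.22 for dox in GM and 0.14 ± 0.25 for dox in DM. DM was lower than GM by 0.52 ± 0.24 on this scale without dox (adjusted p = 0.399) and by 0.39 ± 0.24 with dox (adjusted p = 0.687), neither past the threshold in limma. With summit coverage over the genome-wide background in place of the deposited value, the differences were −0.95 (adjusted p = 0.138) and −0.90 (adjusted p = 0.141), larger by over 1.5 times and again not called by limma.

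Both regions sat in a raised local background. At 38.8 kb the local background was 1.07 to 8.65 fragments per base and at 34.8 kb 0.995 to 8.70, where the genome-wide values of the same libraries were 0.339 to 1.127. Fold enrichment over the local background is therefore lower there than the height over the genome. At 34.8 kb the summit stood 19.6 to 234 times above the genome-wide background, with the highest value in GM +dox replicate 2 and the lowest in DM no dox replicate 3.

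The region at 26.1 kb (chr7:46350165-46350612) had a peak in 13 of 14 libraries and was missing from the shortest list, GM no dox replicate 1. Its E-boxes are CAGGTG at −49 bp, CAAATG at −5 bp and CATTTG at 59 bp from the summit. Fold enrichment was 12.94, 5.50 and 8.03 in the other 3 GM no dox libraries and 11.34, 15.07, 8.65 and 7.48 in GM +dox. It was 5.71, 3.67 and 7.06 in DM no dox and 9.68, 7.87 and 8.93 in DM +dox. As deposited, the 3 DM +dox values were above the 3 DM no dox values, and the share of all regions in this order was not counted. The medians of the fitted regions were also higher in DM +dox, 15.23 to 18.7 against 9.915 to 14.22, and divided by them the values overlapped (0.504 to 0.586 against 0.37 to 0.538). The GM groups overlapped on both scales. Only 2 libraries held this peak in lists of equal length.

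At 23.1 kb (chr7:46352921-46353570) a peak was listed in all 7 +dox libraries and in 2 of 7 no dox libraries. This region carries CAGCTG at both −60 and 53 bp from the summit, CAGTTG at 7 bp and the AP-1 element TGACTCA at −9 bp. Fold enrichment was 6.61, 7.88, 7.31 and 6.95 in GM +dox, 8.25, 5.59 and 7.09 in DM +dox, 7.56 in GM no dox replicate 4 and 5.34 in DM no dox replicate 4. The 2 no dox libraries with the peak have the longest no dox lists, 49300 and 40599 peaks. The peak ranked between 21023 and 38743 where it was listed. The no dox lists without it held 14710, 23078, 23690, 24181 and 39721 peaks, and the part of list length was not tested. Where the peak was present with and without dox, its values overlapped. No library held it in lists of equal length.

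The region at 55.1 kb (chr7:46321256-46321665) had a peak in 11 libraries. In GM these were 4 of 4 without dox and 3 of 4 with dox, and in DM 1 of 3 and 3 of 3. GM +dox replicate 4 (36531 peaks) listed no peak there, while GM no dox replicate 1, the shortest list, did. In lists of equal length 1 library held it. The fold enrichment of the region was 6.78, 9.12, 6.53 and 7.37 in GM no dox and 6.31 in DM no dox replicate 4. With dox it was 13.41, 12.69 and 9.59 in GM +dox and 15.29, 11.99 and 10.34 in DM +dox. Every +dox library with the peak was thus higher than every no dox library with it (9.59 to 15.29 against 6.31 to 9.12). GM +dox replicate 4 and the other libraries without the peak have no value in this order. Of 9 regions near the 4 genes with a peak in at least 3 libraries of each kind, this region was the 1 in that order, beside 1.03% of all such regions. Divided by each library's median over the 11046 fitted regions, the ranges overlapped (0.679 to 0.873 with dox, 0.444 to 1.053 without), and 0 of 9 kept the order, beside 0.568% of all such regions. Divided instead by the median over all listed peaks of the library, a choice made after seeing the data, they did not (1.13 to 1.539 with dox, 0.672 to 1.12 without), so the order depends on the divisor. This second median covers other peaks in each library. It was 8.716 in GM +dox replicate 1 (58587 peaks) and 6.053 in GM no dox replicate 1 (14710 peaks), where the fitted medians were 15.37 and 6.437. The part of list length in this divisor was not tested.

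The sequence at 55.1 kb is a tandem repeat. Its bases matched those 31 bp further on at 77.1% of positions, and no other of the 11 distal sequences examined exceeded 36.1% at any spacing. The repeat holds TGAGTCA 4 times and TGACTCA once within 100 bp of the summit, and the single E-box is CATGTG. Summits in the 11 libraries lay between 46321318 and 46321506. How reads that fit more than 1 unit of a repeat were placed is not given in the sources used here, so its values are uncertain for that reason too.

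**Figure D2:**
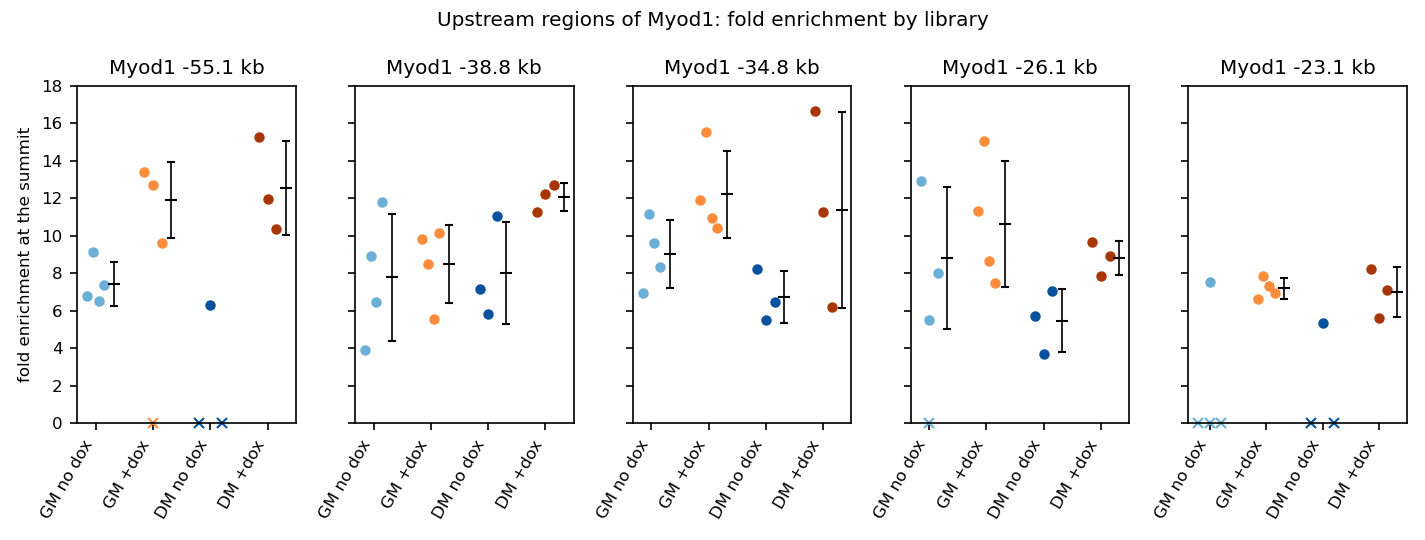
Fold enrichment at the summit for the 5 regions upstream of Myod1, by group, with each library as a point, the mean and SD of the libraries with a peak as a bar, and libraries without a listed peak as crosses at 0. The 2 innermost distances, 26.1 and 23.1 kb, differ in that the first was missing from 1 library and the second from 5 libraries, all without dox.

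Within Myod1 itself, peaks lay in coding exons, where reads from the transgene cannot be told apart from reads of the endogenous gene. The peak in coding exon 1 (chr7:46376694-46377286, 0.6 kb after the start, within the promoter window) had a fold enrichment of 9.14 to 16.46 over all 14 libraries. Its rank ran from 17 in GM no dox replicate 1 to 10096 in GM +dox replicate 1. The local background there was 2.57 to 11.76 fragments per base, the highest in DM +dox replicate 2. By limma, dox changed its centred log2 fold enrichment by −0.46 ± 0.21 in GM (adjusted p = 0.836) and by −0.30 ± 0.24 in DM (adjusted p = 0.743), neither past the threshold.

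A peak in coding exon 3 (chr7:46378152-46378375) was listed in 11 libraries, with fold enrichments of 5.29 to 12.34. The highest value, 12.34, came from DM +dox replicate 2, and the other 10 libraries lay between 5.29 and 9.48. Between 12.0 kb upstream and the gene no library held a peak. Downstream, the promoter of Kcnc1, a potassium channel gene 20.3 kb from the Myod1 start, had a peak in 5 libraries with fold enrichments of 4.74 to 6.93, and the 4 remaining Myod1 regions were found in 1 or 2 libraries.

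At Myf5 and Myf6 peaks were few and weak, and no library held one in lists of equal length. The Myf5 promoter region (chr10:107485509-107486165), whose summit lies in a coding exon, had a peak in 1 of 4 libraries without dox and 2 of 4 with dox in GM, and in 0 of 3 and 3 of 3 in DM. Fold enrichment was 4.21 in GM no dox replicate 4, 5.50 and 4.80 in GM +dox replicates 1 and 2, and 3.73, 3.98 and 5.64 in DM +dox. The summits held 6 to 11 fragments, and the peak ranked at 84.2% to 98.3% of the way down its list. The DM no dox lists are shorter, at 40599 peaks or fewer, than every list with this peak.

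The region 7.4 kb upstream of Myf5 (chr10:107493371-107493878) spans an intron of Myf6 with parts of the exons on either side. It was the most frequent of the locus, with peaks in 7 libraries: 2 of 4 in GM with or without dox, 1 of 3 in DM without dox and 2 of 3 in DM with dox. Fold enrichment was 8.21 and 5.27 in GM no dox, 3.63 and 5.91 in GM +dox, 7.36 in DM no dox and 5.33 and 7.52 in DM +dox. These values overlapped between all groups with more than 1 peak, and no E-box or AP-1 element lay within 100 bp of the summit.

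Further upstream, beyond the Myf6 start, 4 regions were found in 1 to 4 libraries each. The region at 13.7 kb had a fold enrichment of 5.81 in GM +dox replicate 1, 8.59 in DM no dox replicate 4, and 5.59 and 7.48 in DM +dox replicates 2 and 4. Those at 16.2 and 17.5 kb were listed in DM +dox replicate 2 alone, at 7.94 and 7.96. The region at 57.1 kb, in an intron of Ptprq, had 4 peaks of 4.70 to 6.40. DM +dox replicate 2 held peaks at all 6 regions of the locus and DM +dox replicate 3 at 1.

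Around Myog, the gene that marks commitment to differentiation, no library had a peak within 1 kb of the start, in growth medium or after serum withdrawal. The nearest region, 1.6 kb upstream (chr1:134288344-134288548), had a peak in GM +dox replicates 1 and 3 and DM +dox replicate 4, with fold enrichments of 5.62, 4.82 and 4.90. At 12980 bp upstream, 2 GM +dox libraries had peaks of 4.79 and 12.23. Neither region was found without dox, and each was missing from most +dox libraries.

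A group of 3 regions lay 93.9 to 98.6 kb upstream of Myog, in and beside Mybph, a gene for a myosin-binding protein of muscle, whose start is nearer to them than that of Myog. The strongest (chr1:134195787-134196685) lies in an intron of Mybph, 2677 bp from its start, and holds CAGCTG at −60 bp, CACCTG at −41 bp and CAAGTG at 33 bp from the summit. In GM it had a peak in 0 of 4 libraries without dox and 2 of 4 with dox, and in DM in 1 of 3 and 3 of 3. Fold enrichment was 10.85, 7.54 and 7.10 in DM +dox, 5.08 and 5.04 in GM +dox replicates 1 and 2, and 4.17 in DM no dox replicate 4. All 3 DM +dox values were above the other 3, and these peaks ranked 18306 to 26100, against 39058 to 49642 for the others. The share of all regions in this order was not counted. No list of equal length held it.

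The DM no dox lists without this peak held 23690 and 24181 peaks. GM no dox replicates 2 and 4, with 39721 and 49300 peaks, and GM +dox replicates 3 and 4, with 45087 and 36531, also lacked it. The part of list length in its presence was not tested. Its 2 neighbours, 94.7 and 98.6 kb upstream, each had a peak in 1 GM +dox and 2 DM +dox libraries and in no library without dox, at fold enrichments of 3.78 to 5.11.

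**Figure D3:**
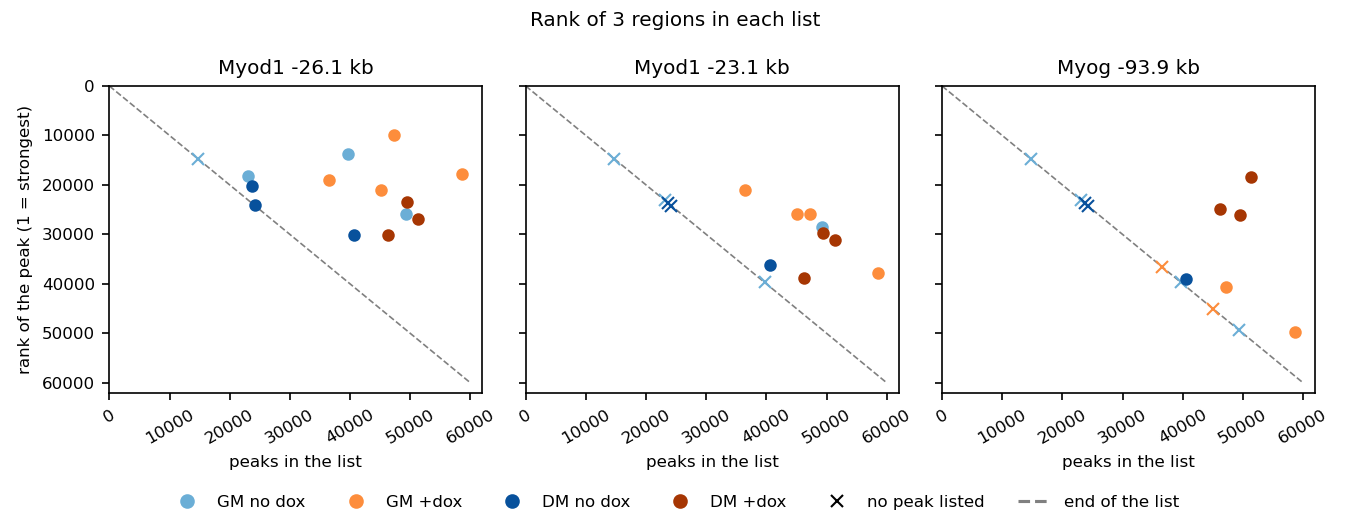
Rank of the peak (1 is the strongest, axis reversed) against the number of peaks in the list for 3 regions, with libraries as points coloured by group, libraries without the peak as crosses on the dashed line that marks the end of the list. At 93.9 kb upstream of Myog the 3 DM +dox points rank between 18306 and 26100, and 4 lists of 36531 to 49300 peaks lack the peak.

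A pair of intergenic regions lay 45.6 and 44.8 kb upstream of Myog. The second (chr1:134245074-134245664) had a peak in all 3 DM +dox libraries and in no other, at fold enrichments of 7.39, 4.85 and 5.48, with 16, 8 and 13 fragments at the summit. It carries CAGCTG 3 times, at −57, −8 and 27 bp from the summit of DM +dox replicate 2. The summit of DM +dox replicate 3, at 134245528, lay outside the printed bases. The first (chr1:134244126-134244484) had peaks in 1 GM no dox, 2 GM +dox and 2 DM +dox libraries, of 4.21, 5.07, 4.93, 4.37 and 8.92.

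Presence that separated whole groups was rare near the 4 genes. In all deposited peaks, dox in DM was matched by a peak in every +dox and no no dox library at 2 of 28 regions, the Myf5 promoter and the region 44.8 kb upstream of Myog, beside 5.37% of all regions, and by the reverse at 0, beside 0.0142%. Dox in GM separated 0 of 28 in either direction, beside 0.446% gained and 0.0% lost. Differentiation without dox separated 0 of 18, beside 0.205% gained and 0.205% lost. Differentiation with dox gained 1 of 35, the region 44.8 kb upstream of Myog, beside 1.49%, and lost 1, in the UTR of Tmem183a 56.4 kb downstream of Myog, beside 0.319%. The share for dox in DM, 2 of 28, is near its background.

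Those counts moved with single libraries. Without DM no dox replicate 4, dox in DM separated 5 of 28 regions instead of 2, beside 16.4% of all regions under the same omission. Without DM +dox replicate 3 it separated 5 of 27, beside 9.44%, and that omission raised gains on differentiation with dox to 2 of 34, beside 2.95%. Without GM no dox replicate 4, dox in GM separated 2 of 27 instead of 0, beside 2.52%. The shares over all regions thus rose with the counts. The Tmem183a region (chr1:134345835-134346867) had peaks in all 4 GM +dox libraries at 5.79, 7.43, 5.36 and 4.05, in GM no dox replicate 4 at 4.36, and in no DM library. Its summits held 7 to 14 fragments.

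**Figure D4:**
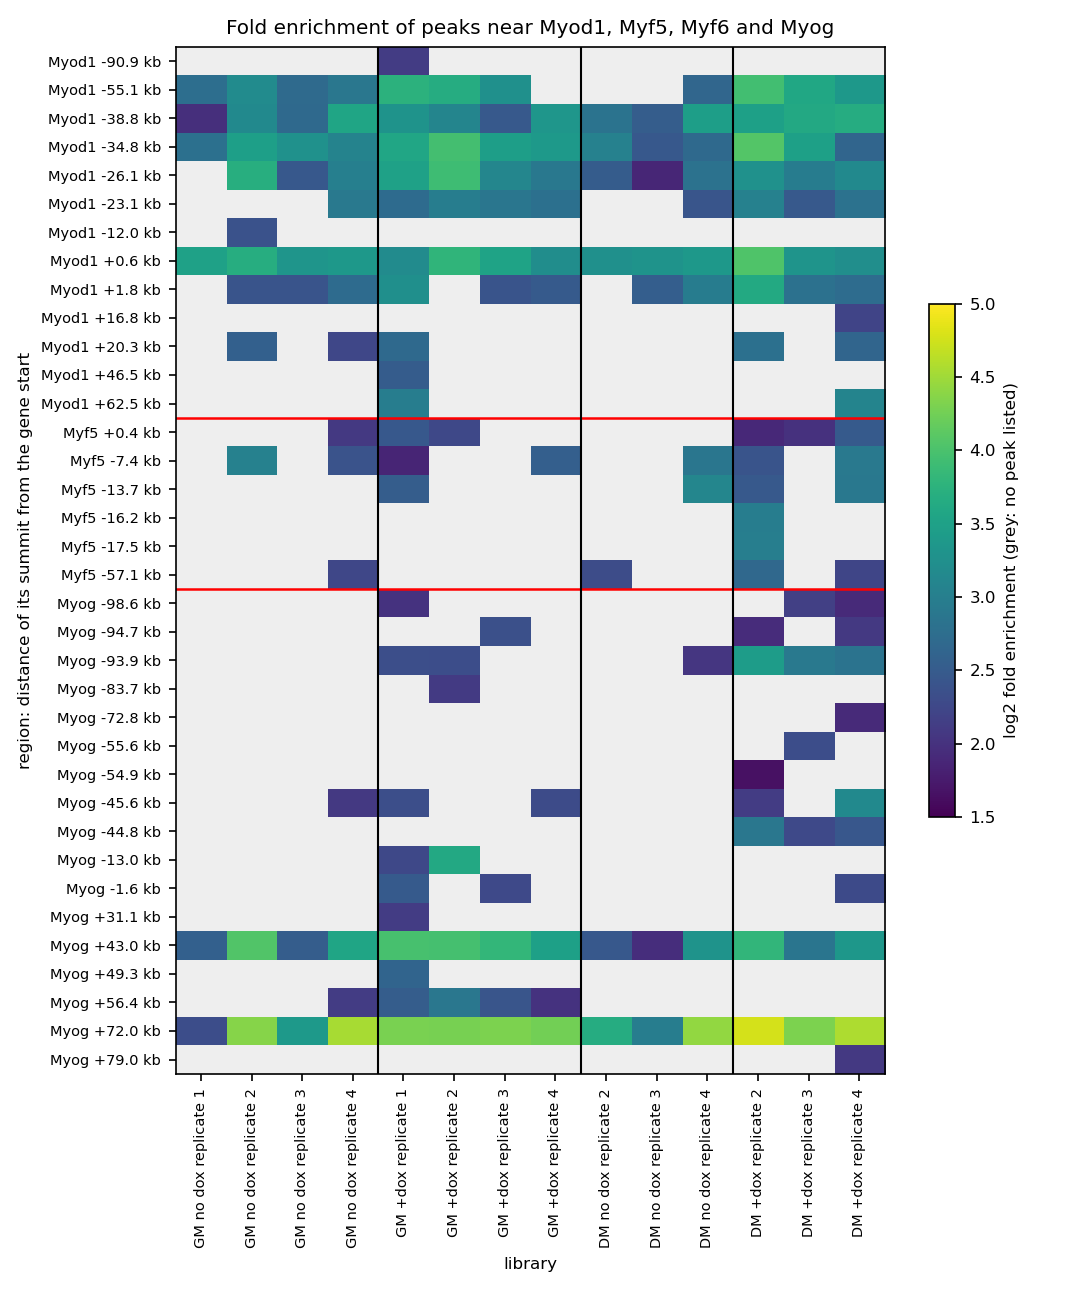
Log2 fold enrichment at each of the 36 regions (vertical, ordered by distance from the gene start, loci separated by red lines) in each of the 14 libraries (horizontal, groups separated by black lines), with grey where no peak was listed. The regions near Myod1 between 55.1 and 23.1 kb upstream had peaks in 9 to 14 libraries. Of the 11 regions upstream of Myog, 9 had peaks in +dox libraries alone, and 4 of these in 1 library.

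Downstream of Myog, both regions open in all 14 libraries were promoters of other genes. The stronger, 72.0 kb from the Myog start and 3 bp from that of Tmem183a (chr1:134361646-134362157), had a fold enrichment of 5.03 to 23.3 in GM and 7.91 to 21.7 in DM without dox, and of 19.2 to 19.9 and 19.9 to 27.5 with dox. No limma contrast of it passed the threshold, the largest being 0.34 ± 0.20 for dox in DM (adjusted p = 0.66). The other, 43.0 kb from the Myog start, lies 81 bp from that of Ppfia4, a gene of the liprin family (chr1:134332618-134333319).

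The Ppfia4 promoter had the largest centred differences among the 5 fitted regions. Its fold enrichment was 5.95, 16.5, 5.81 and 11.72 in GM no dox, 15.75, 15.58, 14.14 and 11.26 in GM +dox, 5.52, 3.87 and 9.79 in DM no dox, and 14, 7.26 and 10.23 in DM +dox. Centred, DM was lower than GM by 0.70 ± 0.20 without dox (adjusted p = 0.128 in limma) and by 0.67 ± 0.20 with dox (adjusted p = 0.181), so neither was called. With the replicate number as a block, the first became −0.67 with an adjusted p of 0.0391 in limma, in a fit that called 1.68% of all regions, and the second was not called. With the summit coverage over the genome-wide background in place of the deposited fold enrichment, both were called, at −1.18 (adjusted p = 0.0168) and −1.13 (adjusted p = 0.013), in a fit that called 2.23% of all regions without dox and 4.74% with dox. The part of local background in that difference was not tested.

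In lists of equal length the same region was lost on differentiation with dox, present in 4 of 4 GM +dox and 0 of 3 DM +dox libraries (1 of 7 regions near the 4 genes, beside 1.1% of all regions). It set the count of peaks in the Myog window, which was 2.0 ± 0 (SD, n = 4) in GM +dox and 1.0 ± 0 (n = 3) in DM +dox. The groups did not overlap, and a two-sided exact permutation test gave p = 0.0286, the smallest possible, with an adjusted p of 1.0 over 21755 protein-coding genes. Such windows lay apart in this direction at 1.33% of genes.

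Numbers of peaks within 100 kb were also counted by gene. In lists of equal length Myod1 had 3.5 ± 1.0 (SD) peaks in GM without dox and 3.25 ± 0.957 with dox, and 2.0 ± 0 and 3.0 ± 1.0 in DM. Myog, in this order of groups, had 1.75 ± 0.5, 2.0 ± 0, 1.0 ± 0 and 1.0 ± 0, and Myf5 and Myf6 had 0 throughout. Over the 14 libraries the median was 3 for Myod1 and 1.5 for Myog, beside a median of 2.0 over all protein-coding genes. The Myod1 count was higher than that of 53.0% of genes. These Myod1 counts include the peaks in its coding exons, where transgene reads cannot be told apart. With those peaks left out, the Myod1 difference was −0.25 for dox in GM and 1.33 for dox in DM. For differentiation it was then −1.92 without dox and −0.333 with dox. No difference between groups passed adjustment over all genes by exact permutation tests, where 3 against 3 libraries cannot give a p below 0.1.

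In all deposited peaks Myog showed the widest differences. Its window held 2.5 ± 1.0 peaks without dox and 6.25 ± 2.63 with dox in GM, and 2.33 ± 0.577 and 8.0 ± 1.73 in DM. By library these were 2, 2, 2 and 4, then 10, 6, 5 and 4, then 2, 2 and 3, and 7, 7 and 10. DM +dox and DM no dox did not overlap (difference 5.67, two-sided exact permutation p = 0.1, the smallest possible, adjusted p = 0.285), and in GM the difference was 3.75 (exact p = 0.0571, adjusted p = 0.541). In DM the counts were higher with dox without overlap at 35.0% of all protein-coding genes. Per 10000 peaks of the list, the DM libraries held 1.36, 1.51 and 2.02 with dox and 0.84, 0.83 and 0.74 without (exact permutation p = 0.1, adjusted p = 0.459). These did not overlap either, beside 6.85% of genes.

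Myod1, with its coding-exon peaks included, had 6.5 ± 1.91, 7.5 ± 2.38, 5.33 ± 1.53 and 8.33 ± 1.53 peaks in the same order of groups. Myf5 with Myf6 had 1.0 ± 1.41, 1.25 ± 1.26, 1.0 ± 1.0 and 3.67 ± 2.52. For dox in DM the differences were 3.0 (exact permutation p = 0.2) at Myod1 and 2.67 (exact permutation p = 0.3) at Myf5 and Myf6, and the groups overlapped at both. Single libraries of DM +dox held 1 to 6 peaks near Myf5 and Myf6.

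**Figure D5:**
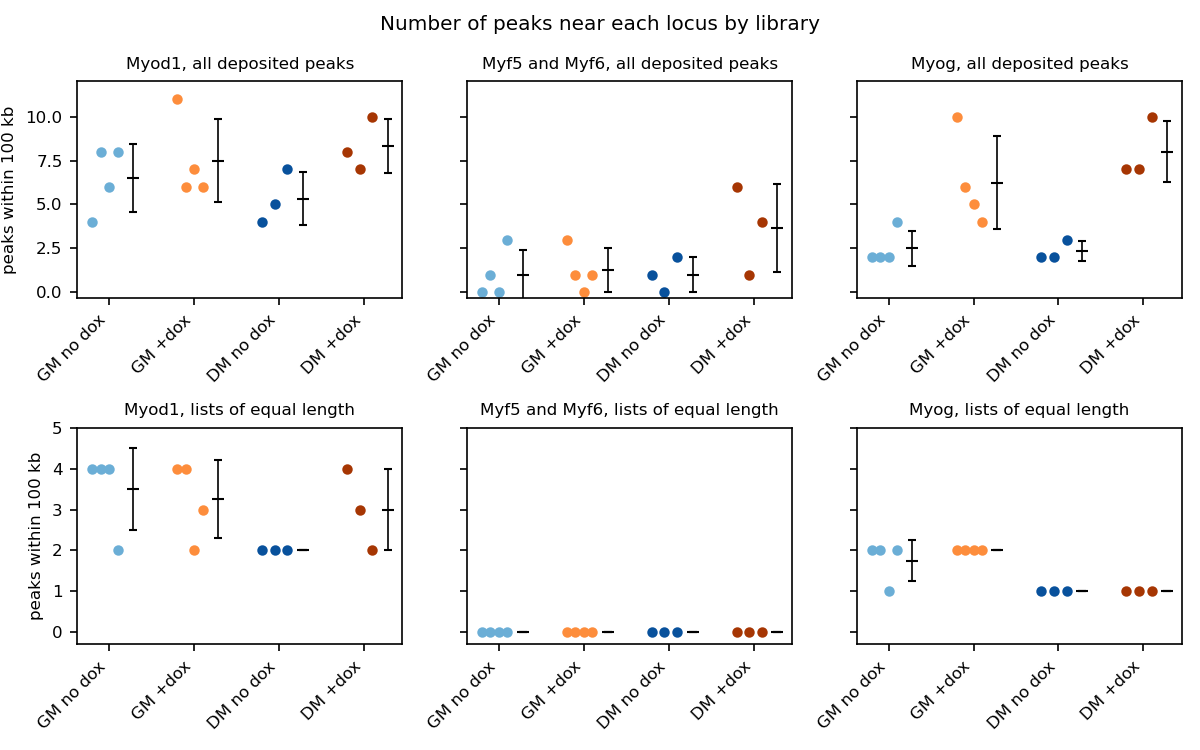
Number of peaks within 100 kb of Myod1, of Myf5 and Myf6, and of Myog in each library (points) with the mean and SD of each group (bars), in all deposited peaks (upper row) and in lists of equal length (lower row). The separation of +dox from no dox at Myog in DM, 7 to 10 against 2 to 3 peaks in the upper row, is absent in the lower row, where all 6 DM libraries hold 1 peak.

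Motifs were searched in the 36 regions and in all regions of the series. CAGCTG lay within 100 bp of the summit, on either strand, in 7 regions (19.4%, Wilson 95% interval 9.75% to 35.0%, counting error only), beside 19.9% of all regions. These 7 were all distal: 2 upstream of Myod1, 1 downstream of it and 4 upstream of Myog. Any E-box, which includes CAGCTG, was found in 72.2% (beside 68.1%), and an AP-1 element in 27.8% (beside 31.7%). The M-CAT element CATTCC, bound by TEAD factors, was found in 30.6%, with an interval of 18% to 46.9%, beside 17.8% of all regions.

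No region held a MEF2-like element (CTA and TAG 4 bases apart) within 100 bp, beside 2.72% of all regions. With 0 of 36, the interval reaches 9.64%, so the difference was not detectable with this number of regions. Such matches are descriptions of letters and not of bound sites. Within 50 bp of the summit the CAGCTG share was 8.33%, beside 11.6%.

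Among 4 lists of other genes of the pathway, none of the fitted regions within 100 kb passed the limma threshold in any contrast. Of all 11046 fitted regions, 0.0% to 0.48% passed it by contrast, so few or none were to be awaited in lists this short. The lists held 13 fitted regions for 3 E proteins (Tcf3, Tcf4, Tcf12), the dimer partners, and 24 for 12 inhibitors such as Id1, Twist1 and Hes1. There were 5 for the 3 MEF2 cofactors and 50 for 16 targets such as Ckm, Myh3 and Mymk. For dox in GM the median log2 difference was 0.04 for E proteins, −0.08 for inhibitors, 0.03 for cofactors and 0.02 for targets, beside −0.02 over all regions. For dox in DM it was 0.03, −0.07, −0.17 and 0.04, beside −0.03. For differentiation without dox it was 0.00, 0.06, −0.13 and −0.01, beside 0.01, and with dox −0.05, −0.01, −0.16 and 0.02, beside −0.01.

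The libraries left out held few of these regions. DM no dox replicate 1, with 1287 peaks, had 2, both in coding exons of Myod1. DM +dox replicate 1, with 14236 peaks, had both of these, the regions 38.8 and 55.1 kb upstream of Myod1, and the Ppfia4 and Tmem183a promoters. Neither had a peak near Myf5 or Myf6.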

How the data were processed

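The deposited narrowPeak lists of 16 ATAC-seq libraries were used. The authors processed reads with nf-core/atacseq on mm10, removed blacklisted regions and called narrow peaks in each library with MACS2 (version and options not given in the sources used here). Deposited per peak are a score, a fold enrichment (a ratio over local background, pseudocount 1), a −log10 p-value and a −log10 q-value, with q under 0.05. Depth is not stated. Whole-number summit coverage and background were solved from fold enrichment and −log10 p. The weakest −log10 p in a kept list was 3.34 to 3.94, and no 2 lists were identical (120 pairs).

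Peaks overlapping by 1 bp were merged. Log2 fold enrichment of the 11046 regions with a peak in all 14 kept libraries was centred on library medians (6.44 to 18.7-fold) and fitted by group in limma 3.58.1 (R 4.3.3) with Benjamini-Hochberg adjustment. Window counts were tested by exact permutation, enumerated with NumPy 2.4.6 and compared with SciPy 1.17.1 on simulated counts. All-or-none regions, with peaks in all libraries of 1 group and no library of the other, were counted with no test. Motifs were searched on both strands with pysam 0.24.0. 1 motif and 1 list of pathway genes are not reported here. Scripts were tested on simulated data.

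Regions were described singly if open in all 14 libraries, in 7 or more in lists of equal length, all-or-none, called, at a member's coding exon or start, or the strongest of their locus. Up to 3 leading distal regions of each locus were taken for sequence. All others singled out, those 55.1 and 23.1 kb upstream of Myod1 included, were chosen after their values were seen, and the members and lists were chosen with earlier results of these data known. Nothing says that same-numbered replicates share a culture or day. Their deviations correlated at 0.167 to 0.276 for dox in GM, 0.19 to 0.364 for dox in DM, 0.191 to 0.463 for differentiation with dox and 0.098 to 0.461 without, so the replicate number was also fitted as a block. For libraries of different number the correlations were, in this order, −0.253 to 0.208, −0.274 to −0.05, −0.384 to 0.183 and −0.271 to 0.182. The ranges thus overlapped for dox in GM and for differentiation without dox. P-values measure the spread between these libraries, which may be technical.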

Additional observations from a re-analysis of the deposited data

Results flagged for a closer look

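In 26 sets of 4 libraries tested by Dixon's ratio, 3 values, from 2 libraries, stood apart from the rest of their set. Chance flags about 1 in 20 groups of independent normal values, a rate that does not hold for small tied counts such as these 3. GM no dox replicate 4 had 2 peaks near Myod1 in lists of equal length, against 4 in each of the others. GM no dox replicate 3 had 1 peak near Myog in lists of equal length, against 2 in each of the others. GM no dox replicate 4 had 4 peaks near Myog in all deposited peaks, against 2 in each of the others, and has the longest list of its group (49300 peaks). In all 3 sets the other libraries had equal counts, so a step of 1 peak would be marked too.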

How the results depend on the processing

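Of 840 alternative values for 51 results, 770 were counted as unchanged, and none of the 51 that reversed was past the threshold. A difference counted as unchanged if it kept its direction and side of the threshold, or if either value was 0 and the call held. Region counts near the main count, and motif shares inside the main interval, counted too. At Myf5 and Myf6 every main difference in peaks was 0, so none could reverse there, as for 2.67 (dox in DM, all deposited peaks). Differences in numbers of peaks that reversed were, in all deposited peaks, 1.0 (Myod1, dox in GM), 0.833 (Myod1, differentiation with dox) and 1.75 (Myog, differentiation with dox). Per 10000 peaks they were −0.129 (Myod1, dox in DM), 0.112 and 0.337 (Myod1 and Myog, differentiation with dox). In lists of 7000 peaks Myog gave −0.5 for dox in GM and 0.25 for differentiation with dox. In lists of 23000 peaks without GM no dox replicate 1, an alternative chosen after seeing the data, Myod1 gave 0.583 for dox in GM. Without centring, log2 differences reversed to 0.20 (38.8 kb upstream of Myod1, dox in GM), 0.22 and 0.10 (Myod1 coding exon 1, dox in DM and differentiation with dox) and 0.0414 (Tmem183a promoter, differentiation without dox). With summit coverage over the genome background, the region 38.8 kb upstream of Myod1 gave 0.20 (dox in GM), −0.37 and −0.13 (differentiation without and with dox), the Tmem183a promoter 0.0777 (differentiation without dox), and 1 region was called in differentiation without and 1 with dox, the Ppfia4 promoter both times. With the replicate block 1 region was called for differentiation without dox, the Ppfia4 promoter, and the Tmem183a promoter gave −0.0448 for differentiation with dox. The block changed no other call. With numbers 1 and 2 against 3 and 4 as a factor, the region 38.8 kb upstream gave −0.0317 (differentiation without dox). With background coverage as a covariate the Tmem183a promoter gave −0.0149 (differentiation with dox). With DM +dox replicate 1 added, the region 38.8 kb upstream gave −0.0169 (differentiation without dox), the Tmem183a promoter gave −0.088 (differentiation with dox) and −0.0124 (interaction), and Myod1 coding exon 1 gave 0.0842 (differentiation with dox). All-or-none regions in lists of equal length were 1 of 5 for dox in DM (beside 0.824% of all regions). On differentiation they were 1 of 8 lost without dox (beside 1.04%) and 0 of 7 gained with dox (beside 1.11%). At −log10 q of at least 3, dox in DM gave 1 of 26 (beside 5.39%). Differentiation with dox then lost 0 of 33 (beside 0.324%). With all 16 libraries, dox in DM gave 0 of 28 (beside 0.297%), and differentiation with dox gained 0 of 35 (beside 0.0395%). The CAGCTG share within 50 bp was 8.33%. The cause of these changes was not tested.

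Leaving out 1 library at a time, the Myod1 difference in peaks ranged from −0.75 to 0.167 for dox in GM and from −0.75 to 0.25 for differentiation with dox. Log2 differences ranged from −0.10 to 0.11 at 38.8 kb upstream of Myod1 (differentiation without dox), from −0.16 to 0.14, −0.10 to 0.47 and −0.12 to 0.45 at 34.8 kb (dox in GM, dox in DM and interaction), from −0.12 to 0.34 at coding exon 1 and −0.17 to 0.24 at the Ppfia4 promoter (interaction). At the Tmem183a promoter they ranged from −0.27 to 0.20 and −0.0056 to 0.15 (differentiation without and with dox) and −0.13 to 0.34 (interaction). All-or-none counts ranged from 0 to 2 (dox in GM), 2 to 5 (dox in DM), 0 to 1 (lost without dox) and 1 to 2 (gained with dox). Under the same omissions the shares over all regions ranged from 0.452% to 2.52%, 5.71% to 16.4%, 0.218% to 1.11% and 1.69% to 2.95%.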
